A study of Mus musculus with 18 samples.

Results

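Markers of liver endothelium, 10 genes in all, were followed through 18 mouse livers, each sequenced as 1 RNA-seq library. The 10 genes were taken by symbol, and all 10 were found both among the 38924 gene IDs counted in males and among the 23337 gene symbols counted in females. They are Gja4, Gja5 and Efnb2, known from arterial endothelium, Vwf and Pecam1, shared by wider classes of endothelium, and Lyve1, Stab1, Stab2, Clec4g and Oit3, known from the sinusoids. The genes were selected on their measured differences in CPM between penicillin and control mice and between the corresponding recipients of microbiota. Those differences are therefore described, with no p-value for any of the 10 genes, and counts of calls there stand only beside those of all genes.

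There were 6 groups of 3 mice, sampled when 8 weeks old. Their food drew 45% of its calories from fat. LDP males (8, 10 and 11) and control males (5, 6 and 7), like LDP females (39, 52 and 54) and control females (29, 30 and 32), were C57BL6J mice weaned at week 4 and given the high-fat diet from week 6. LDP stands for low-dose penicillin given from birth, and controls had none. LDP-microbiota recipients (2, 5 and 8) and control-microbiota recipients (1, 3 and 7) were Swiss Webster females born germ-free and colonised at week 3, with the gut microbiota of LDP or of control females, and they had no drug themselves. The C57BL6J females are called conventional females here. The labels name no cage, litter or donor, so p-values measure the spread between mice that may have shared one. Sex and count table are the same split, and levels were not compared across it.

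Endothelium lines every vessel of the liver, and its parts differ. Arterial cells are coupled by gap junctions built from connexins and are specified by Notch signalling, with ephrin-B2 at their surface facing the EphB4 receptor of veins. The sinusoids, the wide capillaries between plates of hepatocytes, have a fenestrated endothelium that clears hyaluronan and other waste molecules from blood through scavenger receptors and lectins.

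In the GENCODE M21 annotation of GRCm38, Gja4 is a short gene of 2 exons (overlapping exons merged, as for the others) at chr4:127311421-127314039 on the minus strand. Lyve1 has 6 exons at chr7:110850607-110863239 on the minus strand. Stab1, with 58 exons at chr14:31139013-31168641, and Stab2, with 72 exons at chr10:86841198-87008025, are both on the minus strand too. Vwf has 56 exons at chr6:125546774-125686679 on the plus strand, and Clec4g has 11 at chr8:3707064-3720651 on the minus strand. The tables give 1 count per gene and mouse, so splice forms are not separated.

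Libraries held 70336366 to 74418889 counts in males and 17937005 to 28646168 in females. No 2 libraries were identical. LDP-microbiota recipient 8 lay farthest from its group, with a median absolute log2 distance of 0.20, and values that turn or move most without it are given with that change below. The livers carried the markers of the stated tissue, with 6 hepatocyte markers summing to 75772 to 197676 CPM in every mouse. CPM are counts relative to a library size scaled by TMM. A list of 22 pan-endothelial markers, which excludes the 10 genes, summed to 496 to 499 CPM in LDP males and 402 to 498 in control males. The sums were 518 to 553 in LDP females and 490 to 607 in control females, and 437 to 517 in LDP-microbiota recipients and 516 to 539 in control-microbiota recipients. In each pair the ranges overlapped.

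The promoters of the connexin genes Gja4 and Gja5 are shown because Gja4 had the largest change of the 10 genes between LDP and control females and Gja5, its arterial partner, did not follow it. Both windows run from 250 bases before to 50 bases after the start of the gene in the RefSeq promoter table (GRCm38.p6), in which 6 of the 10 genes had an entry. The Gja4 window lies at chr4:127313990-127314289 on the minus strand and that of Gja5 at chr3:97032152-97032451 on the plus strand. In GENCODE M21, Gja5 spans chr3:96904693-97077416, so its window lies inside the annotated gene. Its start site here is not the first one annotated. Capitals mark matches, on either strand, to CACCC, the core of the KLF motif, and to GGGCGG, the GC box.
Gja4: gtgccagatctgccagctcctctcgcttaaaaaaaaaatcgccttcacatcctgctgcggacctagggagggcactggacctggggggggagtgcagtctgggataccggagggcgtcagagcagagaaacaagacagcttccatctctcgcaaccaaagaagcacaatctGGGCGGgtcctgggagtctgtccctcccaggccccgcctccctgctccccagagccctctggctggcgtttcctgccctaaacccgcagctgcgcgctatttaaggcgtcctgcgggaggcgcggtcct
Gja5: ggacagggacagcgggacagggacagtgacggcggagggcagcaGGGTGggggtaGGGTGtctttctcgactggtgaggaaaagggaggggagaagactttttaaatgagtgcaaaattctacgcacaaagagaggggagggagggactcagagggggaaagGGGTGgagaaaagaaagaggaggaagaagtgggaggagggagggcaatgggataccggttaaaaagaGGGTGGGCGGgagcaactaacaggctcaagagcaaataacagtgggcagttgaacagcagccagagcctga
The Gja4 window is 62.0% G and C and holds no CACCC and 1 GGGCGG, which starts at -79 from the start of the gene. The Gja5 window is 55.7% G and C and holds 4 CACCC, starting at -206, -195, -88 and -21, and 1 GGGCGG at -17 that shares a base with the last of them. Of 32851 promoters in the table, 57.5% hold CACCC and 35.7% hold GGGCGG. The other motifs searched, TGGGAA (RBPJ, the DNA-binding factor of Notch signalling; in 25.6% of promoters) and CCGGAA (ETS; 14.9%), had no match on either strand in the windows of Gja4, Gja5, Efnb2, Stab1, Stab2 and Clec4g. These matches describe the letters of the windows and do not show binding.

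Levels can be set against each other only per length, which the male table allows. There the sinusoidal markers stood highest, followed by Pecam1 and then the arterial markers and Vwf. In FPKM, counts scaled to the deposited gene length and to the depth of the library, Clec4g (LSECtin, a lectin) averaged 13.6 ± 1.61 over the 6 males (SD). Oit3, a secreted protein with a zona pellucida domain, averaged 12.9 ± 1.89, and Stab2, a receptor that takes up hyaluronan, 11.6 ± 1.25. Lyve1, a hyaluronan receptor of sinusoidal and lymphatic endothelium, averaged 10.2 ± 4.47, and Stab1, a scavenger receptor related to Stab2, 8.55 ± 0.98. Each of these 5 overlapped its neighbour in this order. Pecam1 (CD31, an adhesion molecule of all endothelium) averaged 4.49 ± 0.38 FPKM and Gja4, which encodes a connexin of arterial endothelium, 2.83 ± 0.88, each apart from its neighbours. Efnb2 (ephrin-B2) averaged 1.13 ± 0.20 FPKM, Vwf (von Willebrand factor, which tethers platelets) 0.72 ± 0.06, and Gja5, a second arterial connexin, 0.26 ± 0.13. Efnb2 and Vwf overlapped, and they change places when the length of all annotated exons is used (0.71 and 0.72 FPKM). Gja5 stood below all the others in every male.

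**Figure D1:**
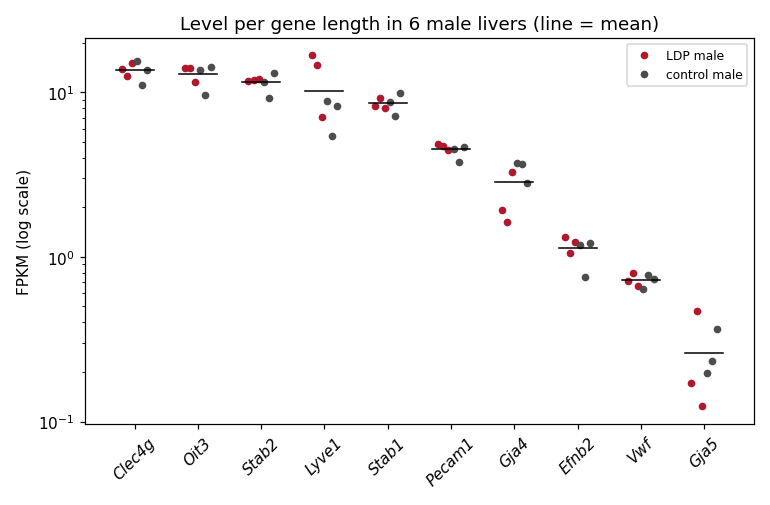
FPKM on a log axis (vertical) for the 10 genes (horizontal, highest mean on the left), with 1 point per male liver, LDP males in red and control males in grey, and a black line at the mean of 6. The 5 sinusoidal markers lie at means of 8.55 to 13.6 FPKM, and Gja5 at 0.26.

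LDP and control males were compared to see whether penicillin from birth changed these genes in the male liver. Gja4 and Lyve1 had the largest differences, in opposite directions, and the groups overlapped in both. Gja4 stood at 3.25, 2.69 and 5.63 CPM in LDP males 8, 10 and 11, against 6.30, 6.19 and 4.66 in control males 5, 6 and 7. LDP males 8 and 10 lay below every control, while LDP male 11 lay among them. The log2 change was -0.57 with an approximate SE of 0.28, and -0.95 without LDP male 11. In a bulk library, fewer cells of a type and less RNA per cell cannot be told apart.

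Lyve1 stood at 43.7, 37.1 and 18.8 CPM in LDP males 8, 10 and 11, against 23.4, 14.1 and 21.3 in control males 5, 6 and 7. Again LDP males 8 and 10 stood outside the range of controls, here above it, and LDP male 11 lay within it. The log2 change was 0.76 ± 0.37 (approximate SE, as for each ± on a log2 change below). Markers of the mesothelium, the sheet that covers the liver, summed to 9.996, 10.7 and 2.40 CPM in LDP males 8, 10 and 11, and to 2.61 to 7.68 CPM in control males. All 6 of these markers were above 0 in each male, and all 6 had higher means in LDP males. Stellate cell markers (8 of 10 higher, none at 0) summed to 724, 735 and 432 CPM in the same LDP males and to 565 to 658 in control males. The part of either cell type in the Lyve1 values was not tested.

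The other 8 genes had smaller changes between LDP and control males. Vwf stood at 11.5, 12.5 and 10.97 CPM in LDP males 8, 10 and 11, against 10.4, 12.4 and 11.7 in control males 5, 6 and 7, a log2 change of 0.02 ± 0.10. The groups overlapped over most of their range. Stab2 ranged over 102 to 108 CPM in LDP males and 81.0 to 113 in control males (0.07 ± 0.11), and Stab1 over 84.2 to 92.4 in LDP males and 73.4 to 101 in control males (-0.02 ± 0.11). Control male 6 was the lowest of the 6 males in Stab1, Stab2, Clec4g, Oit3, Pecam1 and Efnb2. Log2 changes of the remaining 5 genes were 0.20 ± 0.19 for Efnb2, 0.12 ± 0.09 for Pecam1, 0.08 ± 0.15 for Oit3, 0.06 ± 0.13 for Clec4g and -0.06 ± 0.48 for Gja5. The groups overlapped in each, and Gja5 ran both ways, at -0.82 without LDP male 10 and 0.26 without LDP male 11.

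Of the 10 genes, 0 had groups that did not overlap in males, where 10.5% of the 15438 genes tested did. By edgeR 0 passed an adjusted p of 0.05 (0.00648% of all genes did), 0 had an unadjusted p under 0.05 (5.23% of all genes) and DESeq2 called 0. Their median log2 change was 0.07, and that of all genes 0.00. Around them, 13 of 16 other arterial and large vessel markers were higher in LDP males (median 0.18), as were 18 of 22 pan-endothelial markers (median 0.07), 9 of 16 other sinusoidal markers (median 0.01) and 10 of 14 genes of the Notch pathway (median 0.10). None of these 4 lists had a member that passed by edgeR. The arterial and Notch lists share Hey1, Hey2, Dll4, Jag1, Jag2 and Notch4, so their counts, here and below, are not separate. In control male 6 the pan-endothelial list summed to 402 CPM. It summed to 498 and 484 CPM in control males 5 and 7, and to 496 to 499 in LDP males. The smallest p among arterial markers belonged to Mgp, matrix Gla protein, at 2.004 ± 0.44 CPM in LDP males and 1.26 ± 0.17 in control males (edgeR adjusted p = 0.920).

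**Figure D2:**
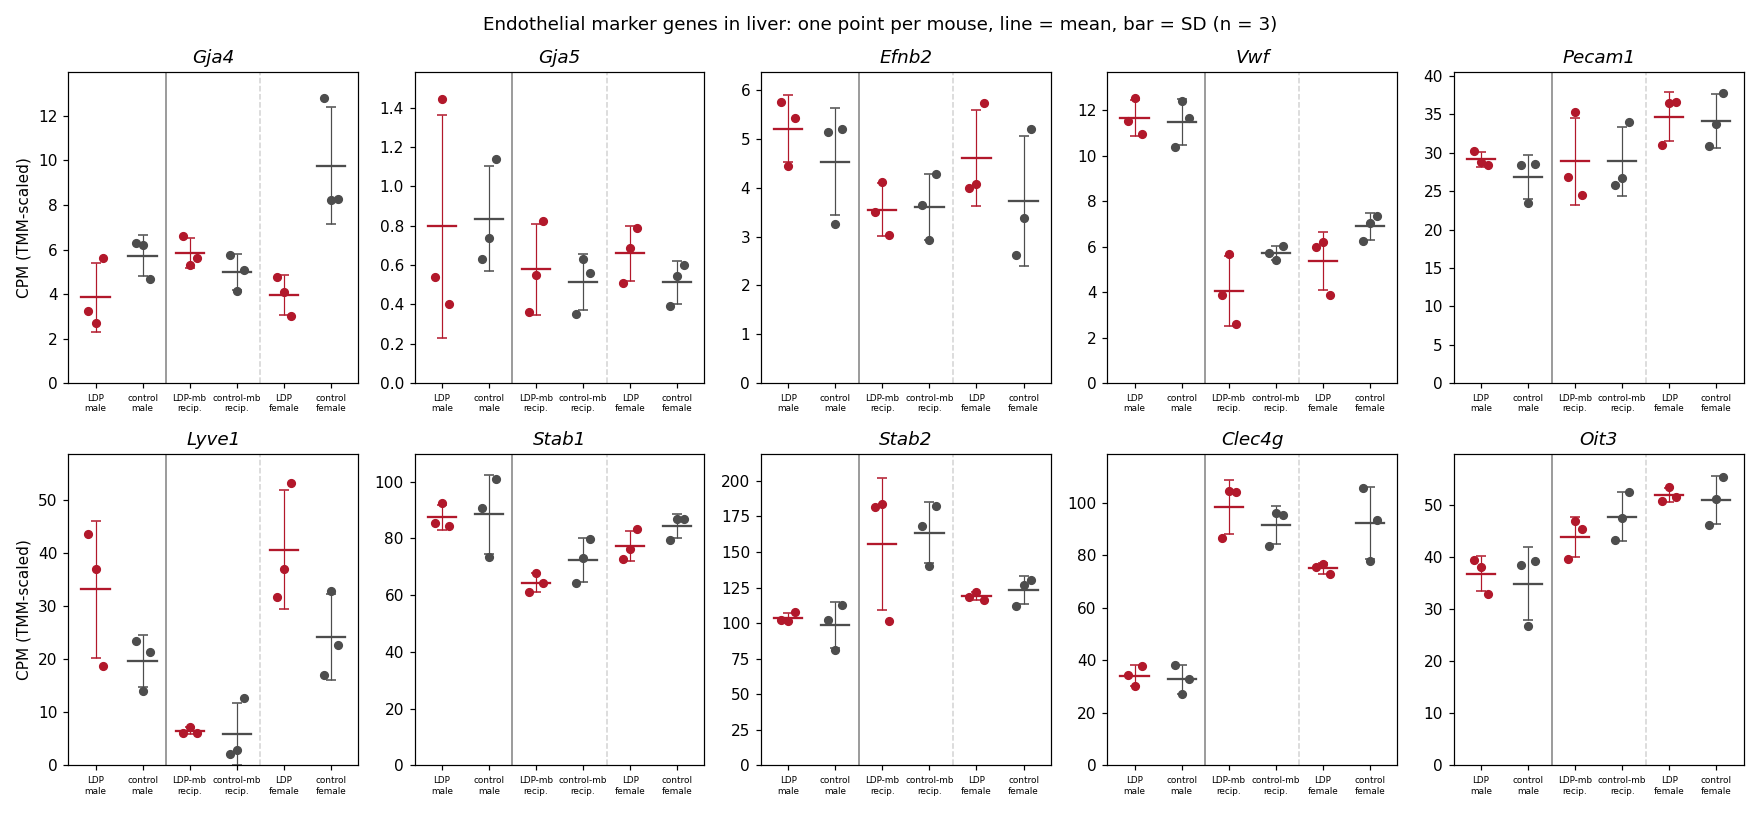
CPM (vertical, from 0, with a scale of its own in each panel) of the 10 genes, with 1 point per mouse, a line at the mean and a bar for the SD of 3, for LDP in red and control in grey. From left to right stand males, recipients of microbiota (mb) and conventional females, with a grey line between the 2 count tables, whose levels cannot be compared. Gja4 is lower in all 3 LDP females (3.01 to 4.79 CPM) than in control females (8.24 to 12.8), and Lyve1 is at 2.12 to 12.7 CPM in recipients; the SD bar of Lyve1 in control-microbiota recipients is cut at 0.

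The same comparison in conventional females gave the widest separation of any of the 10 genes. Gja4 stood at 4.79, 4.11 and 3.01 CPM in LDP females 39, 52 and 54, against 12.8, 8.24 and 8.29 in control females 29, 30 and 32. Every LDP female lay below every control female, and control female 29 was the highest of the 12 females. The log2 change was -1.28 ± 0.23, a 2.44-fold lower level in LDP females, and it was -1.45 to -1.05 without any 1 of the 6 mice.

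Lyve1 stood at 31.7, 37.1 and 53.2 CPM in LDP females 39, 52 and 54, against 17.0, 33.0 and 22.6 in control females 29, 30 and 32. LDP females 52 and 54 exceeded every control, while control female 30 exceeded LDP female 39, so the groups overlapped. The log2 change was 0.75 ± 0.28. Mesothelial markers summed to 22.2, 10.8 and 8.42 CPM in LDP females 39, 52 and 54 and to 5.02 to 6.06 in control females, with 4 of 4 tested markers higher and none at 0. Stellate cell markers summed to 687 to 845 CPM in LDP females and 648 to 753 in control females, with 8 of 10 higher. Lymphatic endothelial markers summed to 163 to 203 CPM in LDP females and 117 to 186 in control females. Of these, 2 of 2 tested were higher, and 1 of 5 was at 0. The 2 tested made up most of the sums. Prox1 averaged 68.6 CPM in LDP females and 58.6 in control females, and Reln 114 and 98.4. Other liver cells also express both, and Reln stands on the stellate list too. The order of the mesothelial sums among LDP females was the reverse of that of Lyve1, and the part of these cells in the values was not tested.

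Vwf and Clec4g were lower in LDP females by small amounts, with no overlap. Vwf stood at 6.00, 6.20 and 3.88 CPM in LDP females 39, 52 and 54, against 6.25, 7.05 and 7.37 in control females 29, 30 and 32 (log2 change -0.35 ± 0.19). LDP females 39 and 52 lay just below the lowest control, and without LDP female 54 the value was -0.17. Clec4g stood at 75.5, 76.8 and 72.8 CPM in LDP females 39, 52 and 54, against 105, 77.8 and 93.4 in control females 29, 30 and 32 (-0.29 ± 0.12). Here too the gap between the groups was narrow, with control female 30 next to LDP female 52. The authors' counting is not stated to use strand, and an exon of Clec4g overlaps the gene Gm16553 on the other strand, so its value is uncertain to that extent. The same holds for Stab1 with Nt5dc2, Stab2 with Gm16268 and Gja5 with Gpr89.

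The 6 other genes overlapped between LDP and control females. Stab1 ranged over 72.7 to 83.1 CPM in LDP females and 79.5 to 86.9 in control females (-0.12 ± 0.10), and Stab2 over 116 to 122 in LDP females and 112 to 131 in control females (-0.05 ± 0.10). Oit3 ranged over 50.8 to 53.4 CPM in LDP females and 46.3 to 55.4 in control females (0.03 ± 0.10), and Pecam1 over 31.0 to 36.6 in LDP females and 30.9 to 37.8 in control females (0.03 ± 0.11). These 4 genes of the sinusoids and of all endothelium changed by -0.12 to 0.03 on the log2 scale. Efnb2 changed by 0.29 ± 0.26. Gja5 changed by 0.35 ± 0.34 on 13 to 17 counts per LDP library and 7 to 13 per control library, where counting error alone gives a coefficient of variation of 25.5% and 31.1%.

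Of the 10 genes, 3 (Gja4, Vwf and Clec4g) had groups of females that did not overlap, all lower in LDP females, and 9.15% of 12914 genes tested had such groups (4.44% lower). By edgeR 0 passed an adjusted p of 0.05, and 0% of all genes did. An unadjusted p under 0.05 was found for 3, of which 1 was higher and 2 lower in LDP females, and for 4.51% of all genes. DESeq2 called 1 of the 10 and 14 of all genes, on the same values that led to the choice of the 10. Nothing is read from these counts. The median log2 change was -0.01, and 0.00 over all genes. Other sinusoidal markers were lower in 13 of 16 (median -0.15), pan-endothelial markers in 14 of 22 (median -0.03) and shear-responsive genes in 5 of 5 (median -0.54), while arterial and large vessel markers were higher in 10 of 12 tested (median 0.10) and Notch pathway genes in 9 of 12 (median 0.10). None of these passed by edgeR, and Nos3 stands on both the pan-endothelial and the shear-responsive list. Of the Notch genes, 0 higher and 2 lower ones, Notch1 and Dll1, had an unadjusted p under 0.05 by edgeR. Notch1 averaged 26.4 ± 2.47 CPM in LDP females and 32.4 ± 3.39 in control females. Dll1 averaged 6.73 ± 0.87 CPM in LDP females and 8.91 ± 0.70 in control females. Plxnc1, a semaphorin receptor on the sinusoidal list, averaged 32.4 ± 2.44 CPM in LDP females, against 46.7 ± 7.51 in control females (edgeR adjusted p = 0.987). Thbd, thrombomodulin, an anticoagulant receptor that shear stress induces, averaged 8.54 ± 3.62 CPM in LDP females, against 15.5 ± 3.40 in control females (edgeR adjusted p = 0.999).

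**Figure D3:**
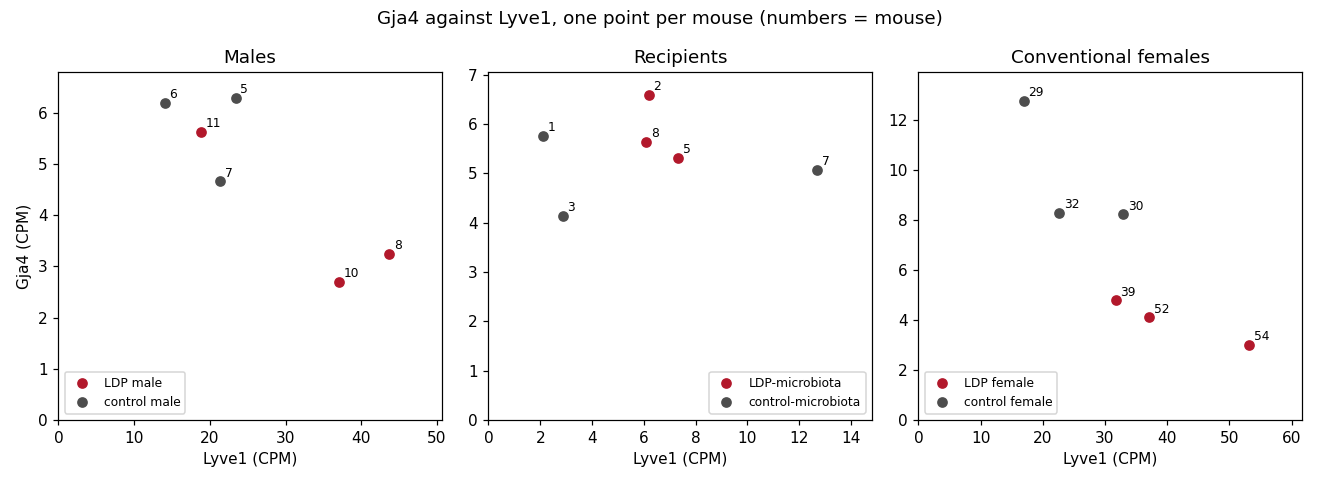
Gja4 (vertical) against Lyve1 (horizontal), both in CPM, with 1 numbered point per mouse in males, recipients and conventional females, LDP or LDP-microbiota in red and control in grey. LDP males 8 and 10 lie below the control males in Gja4 and above them in Lyve1, LDP male 11 lies with the control males, and the 3 LDP females lie below the control females in Gja4 and overlap them in Lyve1.

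Of the 6 conventional females, LDP female 54 had the lowest Gja4 and the highest Lyve1, and control female 29 the highest Gja4 and the lowest Lyve1. Among males, LDP males 8 and 10 held the 2 lowest values of Gja4 and the 2 highest of Lyve1, with male 10 lowest in Gja4 and male 8 highest in Lyve1. The highest Gja4 and the lowest Lyve1 among males belonged to control males 5 and 6, different animals. This pair was picked after the values were seen, and it has no test.

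Germ-free females given the microbiota of LDP or of control females were compared to see whether a difference passes with the microbiota. Gja4 did not repeat the separation of the conventional females. It stood at 6.59, 5.31 and 5.64 CPM in LDP-microbiota recipients 2, 5 and 8, against 5.76, 4.13 and 5.07 in control-microbiota recipients 1, 3 and 7. The groups overlapped, and the log2 change was 0.22 ± 0.19, higher with the LDP microbiota. Whether this change differs from that in conventional females was not tested, since the choice of the genes rests on both.

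Lyve1 was low in both groups of recipients. It stood at 6.19, 7.34 and 6.09 CPM in LDP-microbiota recipients 2, 5 and 8, against 2.12, 2.88 and 12.7 in control-microbiota recipients 1, 3 and 7. Control-microbiota recipient 7 was the highest of the 6 recipients and the other 2 of its group the lowest, which gave a log2 change of 0.13 ± 0.66. Without recipient 7 it was 1.38, so this 1 library decides the value. Mesothelial markers summed to 7.11 CPM in recipient 7 and to 2.12 and 0.72 in control-microbiota recipients 1 and 3, with 2.03 to 4.44 in LDP-microbiota recipients, and in recipient 3 the sum rests on 3 of 6 markers, the others being at 0.

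Vwf was lower with the LDP microbiota in 2 of 3 mice. It stood at 3.87, 5.69 and 2.61 CPM in LDP-microbiota recipients 2, 5 and 8, against 5.71, 5.44 and 6.04 in control-microbiota recipients 1, 3 and 7 (-0.52 ± 0.27). LDP-microbiota recipient 5 lay within the range of controls, and the value was -0.84 without recipient 5 and -0.27 without recipient 8, the lowest of the 6. Stab2 stood at 181, 184 and 102 CPM in LDP-microbiota recipients 2, 5 and 8, against 168, 140.2 and 182 in control-microbiota recipients 1, 3 and 7 (-0.08 ± 0.23). Recipient 8 alone was low in Stab2, and without it the log2 change was 0.15, in the other direction. The coefficient of variation of Stab2 was 29.9% among LDP-microbiota recipients, against 2.43% among LDP females.

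Clec4g ranged over 86.5 to 105 CPM in LDP-microbiota recipients and 83.4 to 96.0 in control-microbiota recipients (0.09 ± 0.12). Stab1 ranged over 61.3 to 67.9 CPM in LDP-microbiota recipients and 64.2 to 79.8 in control-microbiota recipients (-0.18 ± 0.12). Of the others, Oit3 changed by -0.13 ± 0.12, Gja5 by 0.17 ± 0.42, Efnb2 by -0.04 ± 0.22 and Pecam1 by -0.01 ± 0.17. Without LDP-microbiota recipient 8 these last 3 changed sign, to -0.20 for Gja5, 0.07 for Efnb2 and 0.10 for Pecam1. Other single mice turned them too, control-microbiota recipient 1 for Gja5 (-0.04) and control-microbiota recipient 7 for Efnb2 (0.11) and Pecam1 (0.13). All 10 genes overlapped between the recipients, where 11.8% of 12780 genes did not. By edgeR 0 of the 10 passed an adjusted p of 0.05 (0.00782% of all genes) and 0 had an unadjusted p under 0.05 (5.11%), and DESeq2 called 0. Their median log2 change was -0.03, and -0.01 over all genes.

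Among related genes, all 11 tested genes of the Notch pathway were lower with the LDP microbiota (median -0.26), among them the receptor Notch2 at 34.5 ± 5.92 CPM in LDP-microbiota recipients and 46.3 ± 6.72 in control-microbiota recipients. All 4 tested vascular smooth muscle markers were lower too (median -0.85), with summed levels of 6.08 to 8.89 CPM in LDP-microbiota recipients and 11.5 to 12.1 in control-microbiota recipients, and with 1 or 2 of the 7 markers at 0 in each LDP-microbiota recipient. None of these 15 genes passed by edgeR (adjusted p = 0.846 for Notch2). Other arterial markers were higher in 4 of 10 tested, sinusoidal markers in 6 of 16 and pan-endothelial markers in 11 of 22.

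**Figure D4:**
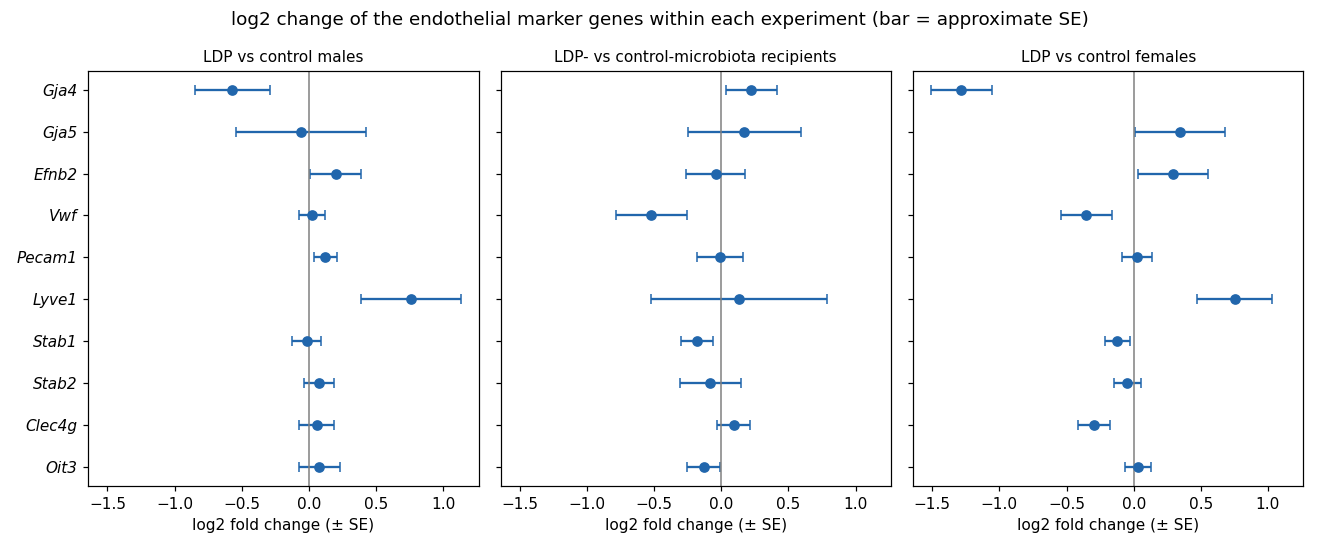
log2 fold change (horizontal) of each of the 10 genes (vertical) for LDP against control males, LDP-microbiota against control-microbiota recipients and LDP against control females, with bars for the approximate SE. Gja4 lies at -0.57, 0.22 and -1.28 and Lyve1 at 0.76, 0.13 and 0.75, while Stab1, Stab2, Oit3 and Pecam1 lie between -0.18 and 0.12 in each panel.

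Setting all 6 recipients against all 6 conventional females makes a comparison on which the genes were not selected. Each side has 1 LDP and 1 control group. The genes and lists were still chosen with earlier results of these data known. The p-values here may therefore not be fully free of that choice. Strain, birth without microbes, colonisation and experiment differ together here and cannot be told apart. The weeks of weaning and of the start of the high-fat diet are at hand for conventional females only, so diet schedule may differ too. Lyve1 was lower in recipients, the largest difference of the 10. Its lowest, median and highest values were 2.12, 6.14 and 12.7 CPM in recipients, against 17.0, 32.3 and 53.2 in conventional females. Every recipient lay below every conventional female. Means were 6.22 ± 3.77 CPM in recipients and 32.4 ± 12.6 in conventional females (SD, n = 6 each), and the log2 change of -2.34 ± 0.40 is a 5.05-fold lower level (edgeR adjusted p = 0.00214). Without any 1 of the 12 mice it was -2.95 to -2.14 and passed each time. With control groups alone, whose levels entered the choice of genes, it was -2.03 and did not pass (edgeR adjusted p = 0.150).

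The paired scavenger receptors went opposite ways. Stab1 was lower in recipients, with 61.3, 66.1 and 79.8 CPM as lowest, median and highest, against 72.7, 81.3 and 86.9 in conventional females. The log2 change was -0.24 ± 0.07 (edgeR adjusted p = 0.0242), and the groups overlapped. Stab2 was higher in recipients, with 102, 175 and 184 CPM as lowest, median and highest, against 112, 120.1 and 131 in conventional females. The log2 change was 0.40 ± 0.13 (edgeR adjusted p = 0.0383), and only LDP-microbiota recipient 8 lay within or below the range of conventional females. Without recipient 8 the change in Stab2 was 0.51 (edgeR adjusted p = 7.87e-04). Stab1 lost its call without any 1 of 5 mice and Stab2 without any 1 of 10 mice.

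The other 7 genes did not pass in this comparison. Pecam1 averaged 28.9 ± 4.56 CPM in recipients and 34.4 ± 3.00 in conventional females, a log2 change of -0.25 ± 0.11 (edgeR adjusted p = 0.0936). Oit3 averaged 45.9 ± 4.36 CPM in recipients and 51.5 ± 3.06 in conventional females (-0.17 ± 0.07, edgeR adjusted p = 0.118). Clec4g averaged 95.0 ± 8.78 CPM in recipients and 83.6 ± 12.9 in conventional females (0.19 ± 0.09, edgeR adjusted p = 0.117). The groups overlapped in each of these 3 genes. Vwf changed by -0.35 ± 0.17 (edgeR adjusted p = 0.157), Efnb2 by -0.22 ± 0.18 (0.395) and Gja5 by -0.08 ± 0.27 (0.853). Gja4 changed by -0.21 ± 0.15 (0.345), and it ran both ways within the comparison. It was 0.54 between LDP-microbiota recipients and LDP females, and -0.97 between control-microbiota recipients and control females, all 3 of which lay above every recipient. Each of these 2 values uses the LDP or control females alone, whose Gja4 levels led to its choice, and is given with no test.

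In all, 3 of the 10 genes passed, and so did 26.7% of the 13295 genes tested, with 1671 higher and 1885 lower in recipients. The share of the 10 is therefore near the background. An unadjusted p under 0.05 was found for 6 of the 10 and for 38.7% of all genes. The groups did not overlap for 1 of the 10, Lyve1, and for 13.0% of all genes. The median log2 change was -0.21, and 0.00 over all genes.

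Related endothelial genes gave the following counts between recipients and conventional females, beside the 26.7% of all genes that passed. Of 22 pan-endothelial markers 0 passed as higher and 6 as lower (median -0.23), among them Mmrn2, a matrix protein of vessels, at 13.8 ± 2.29 CPM in recipients and 19.3 ± 1.82 in conventional females (edgeR adjusted p = 0.00552). The pan-endothelial count was 3 without LDP female 52, up to 9 without another mouse, and 0 with control groups alone. Of 13 tested arterial and large vessel markers 1 passed as higher and 4 as lower (median -0.18). Fbln5, an elastic fibre protein, was at 10.7 ± 1.90 CPM in recipients and 6.45 ± 1.68 in conventional females (edgeR adjusted p = 0.00205), and Ltbp4, also of elastic fibres, at 24.0 ± 4.86 in recipients and 54.3 ± 12.4 in conventional females (1.05e-04). Of 16 other sinusoidal markers 1 passed in each direction (median -0.08). Dnase1l3, a secreted nuclease, rose to 97.1 ± 17.1 CPM in recipients, against 70.2 ± 10.99 in conventional females (edgeR adjusted p = 0.0145), and Gata4, a transcription factor of sinusoidal endothelium, fell to 16.1 ± 1.49 against 19.0 ± 1.17 (0.0395).

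Smaller families were mixed, again beside 26.7% of all genes. Of 13 tested Notch pathway genes 2 passed as lower, the target genes Hey1 (log2 change -1.10, edgeR adjusted p = 0.0275) and Heyl (-0.85, 0.0297). Hey1 also counts among the arterial markers above. The Notch count was 0 with control groups alone and also without any 1 of 6 mice, which were LDP-microbiota recipients 2 and 5, control-microbiota recipient 3, LDP female 54 and control females 30 and 32. Of the 5 shear-responsive genes 1 was higher, Klf2 (0.13, edgeR adjusted p = 0.628), and 4 were lower. Passing as lower were 3, among them Thbd (-0.95) and Edn1, the vasoconstrictor endothelin (-1.34), which also stands on the arterial list. Of 3 other connexins tested 0 passed by edgeR, while DESeq2 called 2 and edgeR called 0 to 2 without any 1 mouse. Of 4 tested B-type Eph receptors and ephrins 3 were higher and 1 lower, and 1 passed as higher, Ephb6 (0.94). Of 9 venous and activated markers 1 passed as lower, Thbd.

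Markers of other cells that can carry Lyve1, or that lie beside the sinusoids, were counted in the same comparison, where 26.7% of all genes passed. Kupffer cell markers, of the resident macrophages, were lower in 10 of 10 tested, with 5 passing (median -0.40), and summed to 603 to 891 CPM in recipients and 753 to 1026 in conventional females, with none at 0. Of 5 lymphatic endothelial markers 2 could be tested and 0 passed. They summed to 114 to 185 CPM in recipients and 117 to 203 in conventional females, mostly from Prox1 and Reln, which other liver cells also express. Ccl21a, a chemokine of lymphatic endothelium, was listed at 0 in all 12 females, as was the globin gene Hba-a1, and both were above 0 in males, so the 0 is not read as absence. Mesothelial markers were lower in 6 of 6 (2 passing, median -1.23), and stellate cell markers in 9 of 10 (3 passing, median -0.31), with stellate sums of 526 to 724 CPM in recipients and 648 to 845 in conventional females. The part of these cells in the Lyve1 difference was not tested.

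**Figure D5:**
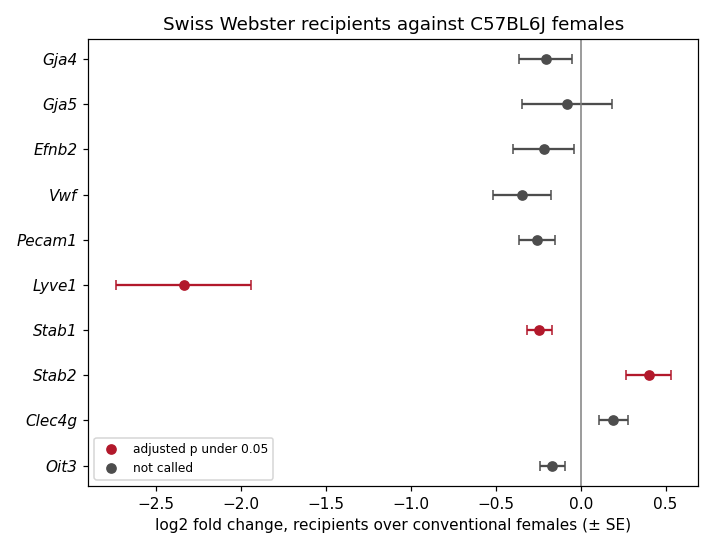
log2 fold change (horizontal) of the 10 genes (vertical) in 6 recipients over 6 conventional females, with bars for the approximate SE, in red where the edgeR adjusted p is under 0.05. Lyve1 lies at -2.34, Stab1 at -0.24 and Stab2 at 0.40, and the other 7 lie between -0.35 and 0.19.

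The genes whose pattern over the 18 mice was most like each member were found by the root mean square difference of log2(CPM + 1). The mean of each experiment was subtracted first. Each member was set against 10386 genes, which had a mean of at least 1 CPM in both tables or were members. Gja5 was below 1 CPM. This measure is a description of these libraries, and genes that vary little are near each other for that reason alone. Gja4, whose own root mean square was 0.42, was nearest to Abhd6 (0.24), a monoacylglycerol lipase, Aldh3a2 (0.24), a fatty aldehyde dehydrogenase, and Arhgef3 (0.26). Lyve1 had the widest swings of the 10 (0.59), and its nearest genes, Igfbp3 (0.37), Cyp1b1 (0.39) and Fabp4 (0.40), remained far from it.

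The other 8 genes lay closer to their nearest genes. Pecam1 was nearest to Plxnd1 (0.08) and Cdh5 (0.09), VE-cadherin, and Stab1 to Plxnd1 (0.07), a semaphorin receptor, and Arap3 (0.08). Stab2 was nearest to Uhrf1bp1l (0.11), with Flt1 (0.12), a VEGF receptor, among its 3 nearest genes, and Oit3 to Sh3tc1 (0.08), with Stab1 (0.09) among its 3. Clec4g was nearest to Dbr1 (0.09), Efnb2 to Tnfaip3 (0.14), Vwf to Lrp4 (0.12) and Gja5 to Mcam (0.13). Gja4 and Gja5 were not among each other's 3 nearest genes. The measure keeps the size of the swings, and the root mean square of Gja5 was 0.19, against 0.42 for Gja4. It therefore cannot show whether these 2 genes vary together.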

How the data were processed

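Liver RNA of 18 mice was sequenced, 1 library each. The RNeasy Mini Kit and TruSeq v2 reagents were used, per the labels' protocols. The submitters' processing notes list featureCounts 1.4.3-p1 and HTSeq 0.5.3p9, both counters, besides the aligner STAR 2.3.0e, the mm10 genome and DESeq, without saying which table each served. The authors deposited raw counts per gene, in 1 table for 6 males and 1 for 12 females, with no pooling. In males, 37607 of 38924 Ensembl IDs (96.6%) were matched to symbols in GENCODE M21 (GRCm38), and the deposited gene length served only for FPKM.

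The 10 genes and the lists around them were chosen with earlier results of these data known. Every gene was fitted, and p-values were adjusted over all genes tested (Benjamini-Hochberg, threshold 0.05), with the robust quasi-likelihood test of edgeR 4.0.16 in R 4.3.3, filterByExpr (minimum count 10, total 15) and TMM. LDP and control were compared 3 against 3. Recipients and conventional females were compared 6 against 6, as the mean of 2 group coefficients over the mean of the other 2. Approximate SEs were derived from F. All 10 genes passed the filter in each comparison. The genes named are the 10 members, their 3 nearest genes by the stated measure, and, of each list, up to 2 of smallest p per direction, not all of them printed. Alternatives were DESeq2 1.42.0, other scalings and filters, a fit that is not robust, a shared spread, single arms and leaving out each mouse. The scripts were tested on simulated data. CPM rest on single libraries, and their SD covers spread between mice and counting error together.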

Additional observations from a re-analysis of the deposited data

How the results depend on the processing

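No paired analysis was possible because the replicate numbers name mice, and the groups compared share none. By edgeR 1 gene was called between LDP and control males (2 with no filter on low counts, 40 by DESeq2, and 0 to 66 without any 1 mouse, the 66 without LDP male 11). Between LDP and control females 0 were called (1 with no filter, 14 by DESeq2, 0 to 1 without any 1 mouse). Of the 10 endothelial genes DESeq2 called 1 there and edgeR 0, on the values that led to their choice. Between recipients 1 gene was called (2 with no filter, 14 by DESeq2, 3 with all 12 females sharing the spread, 0 to 4 without any 1 mouse). Between recipients and conventional females 3556 genes were called, 1086 with control arms only and 1940 with LDP arms only. Of the 10 genes 3 were called there, and 1 to 4 without any 1 mouse. With control arms only 1 was called, and with LDP arms only 1. Single arms use levels that led to the choice of the genes, so nothing is read from these calls. Counts of list genes called moved as well. Without any 1 mouse they were 3 to 9 for pan-endothelial markers (6 with all mice), 4 to 5 for arterial (5), 1 to 2 for sinusoidal (2), 0 to 3 for Notch (2), 2 to 3 for shear-responsive (3), 3 to 6 for Kupffer cell (5), 1 to 5 for stellate cell (3) and 1 to 6 for mesothelial genes (2). With control arms only they were 0 for pan-endothelial, sinusoidal, Notch, Kupffer cell and mesothelial genes, 2 for arterial and 1 each for shear-responsive and stellate cell genes. With LDP arms only they were 3 for pan-endothelial, arterial and Kupffer cell genes, and 1 each for sinusoidal, Notch and shear-responsive genes. In that comparison 5 values changed sign. Gja4 was 0.54 with LDP arms only. With control arms only Clec4g was -0.011 and Gja5 0.0019. Without any 1 mouse Gja5 was -0.27 to 0.045, above 0 without control-microbiota recipient 1 (0.021) or LDP-microbiota recipient 2. With control arms only Stab1 was not called (edgeR adjusted p = 0.297), nor was Stab2 (0.0889), and with LDP arms only neither was Stab1 (0.0996) or Stab2 (0.263). Stab1 was not called without control female 30 or 32, LDP female 54, control-microbiota recipient 1 or LDP-microbiota recipient 2 (edgeR adjusted p = 0.0540 to 0.0585). Stab2 was called without control-microbiota recipient 3 or LDP-microbiota recipient 8 and was not called without any 1 of the other 10 mice (0.0573 to 0.0932). Without LDP-microbiota recipient 5, Vwf (-0.50, 0.0326) and Pecam1 (-0.34, 0.0266) were called, and Pecam1 was also called without control-microbiota recipient 7 (0.0338). The causes were not tested. DESeq2, other scalings, other filters and the fit that is not robust kept the calls of Lyve1, Stab1 and Stab2. Gja5, at 7 to 22 counts per female library, is the gene that depth limits most.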

Other observations

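Vwf is also made by megakaryocytes, and platelet and megakaryocyte markers were counted for that reason. Between recipients and conventional females 26.7% of all genes passed. Of 4 such markers tested between recipients and conventional females 1 passed as higher, Ppbp, at 0.57 ± 0.19 CPM in recipients and 0.24 ± 0.16 in conventional females (edgeR adjusted p = 0.0228). The count was 0 without LDP-microbiota recipient 2, control-microbiota recipient 1 or control female 30, and with control or LDP groups alone. The list summed to 4.05 to 6.14 CPM in recipients and 5.39 to 7.50 in conventional females, and Gp1bb was at 0 in 10 of 12 females.

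Kupffer cell markers were lower in 11 of 11 in LDP males than in control males (median -0.28), with summed levels of 479 to 522 CPM in LDP males and 564 to 687 in control males. By edgeR 0 passed and DESeq2 called 1, and 7 had an unadjusted p under 0.05 by edgeR, as 5.23% of all genes did.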
